A study of Mus musculus with 16 samples.

Results

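Mrc1, Lyve1, Pf4, Cbr2, F13a1, Folr2 and Dab2 are genes by which border-associated macrophages of the mouse brain are commonly recognised. Their levels were read in RNA from FACS-sorted brain macrophages and microglia. RefSeq transcripts were summed by gene symbol, and the 7 genes were taken by name out of 18580 genes. All 7 were listed in the tables. CD163KO mice of both sexes, carrying the allele CD163tm1.1(KOMP)Vlcg, and their WT littermates (C57BL/6N) were operated at 12 weeks of age. Each received bilateral intrastriatal α-syn, either as monomers (MONO) or as preformed fibrils (PFF), and cells were taken 2 months p.i. No uninjected group was analysed here. Each combination of population, sex, genotype and α-syn gave 1 table, that is 8 macrophage libraries (CD45 high/CD11b+) and 8 microglia libraries (CD45 low to intermediate/CD11b+). The groups held 7 WT mice, 5 CD163KO mice, or 4 in the case of CD163KO males given MONO, and whether a table holds 1 of the stated triplicates or several animals pooled is not given in the sources used here.

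Border-associated macrophages live in the meninges, the perivascular spaces and the choroid plexus. They lie outside the brain parenchyma, which holds the microglia, and they clear proteins and debris from the fluid that drains along vessels and meninges. CD163 is a scavenger receptor for haemoglobin-haptoglobin that such macrophages carry, and its loss is the variable of the CD163KO strain. The receptors among the 7 genes are Mrc1 (the mannose receptor CD206), Lyve1 (a hyaluronan receptor) and Folr2 (folate receptor beta). Pf4 encodes the chemokine platelet factor 4 (CXCL4), which megakaryocytes and platelets also make in large amounts. F13a1 encodes the A subunit of the transglutaminase factor XIII, Cbr2 a carbonyl reductase, and Dab2 an endocytic adaptor. The macrophage gate was stated to include infiltrated macrophages, neutrophils and NK cells as well, from 10000 to 30000 sorted cells. The microglia tubes held 200000 to 500000 cells, and a purity above 90% was stated for both.

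Macrophage libraries summed to between 12170686 and 21433841 estimated counts and microglia libraries to between 8648751 and 18768238. Cd163 itself checked the labels of the macrophage libraries. It had 748 to 5275 counts in the 4 WT macrophage libraries and 0, 0, 0 and 1 in the 4 labelled CD163KO. In microglia it did not check them, with 0 to 101 counts in the WT libraries and 5 to 23 in those labelled CD163KO. In each population, the male CD163KO MONO library, which the study left out for inconsistent technical replicates, and the male WT PFF library stood apart from the other 6. Apoe took 3.4% and 3.2% of their macrophage counts against 7.4% to 19.8% in the others, and Cst3 18.3% and 19.7% of their microglia counts against 4.6% to 5.5%. The female CD163KO MONO microglia library held 799 Y-linked counts, against at most 2 in the other female libraries. The male CD163KO MONO libraries entered no test below, and the tests below include the male WT PFF libraries unless it is said otherwise. Mice came from 2 batches that the labels do not tie to libraries.

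In macrophages all 7 markers were well expressed. By FPKM, Pf4 was the highest, Cbr2 the next and Lyve1 the lowest of the 7 in each of the 8 libraries. FPKM (fragments assigned to a transcript, scaled to its length and to the depth of the library) put different genes on a common scale. The order rests on the scaling to length, and in 2 libraries FPKM moved with length (below). By counts the median was 10457 for Dab2, 8906.5 for Cbr2 and 8598 for Pf4, and lowest for Lyve1 (968). Pf4 had a median of 1197 FPKM over the 8 macrophage libraries (452 to 2065), followed by Cbr2 with 553 (384 to 787) and Folr2 with 292 (127 to 457). Pf4 ranked between 37 and 82 among all genes of a library. Dab2 had a median of 125 FPKM (79.8 to 373), Mrc1 99.9 (50.1 to 412), F13a1 90.8 (39.3 to 492) and Lyve1 22.9 (7.71 to 106.5). The ranges of Dab2, Mrc1 and F13a1 overlapped almost wholly, so these neighbours in the order could not be told apart. Of the summed FPKM of the 7 genes, Pf4 gave a median of 43.5% (37.9% to 58.4%), Cbr2 24.2% and Folr2 10.7%, while Lyve1 gave 1.06%. The sum itself was 1193 to 4184 FPKM in macrophages and 9.23 to 104 in microglia, without overlap.

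**Figure D1:**
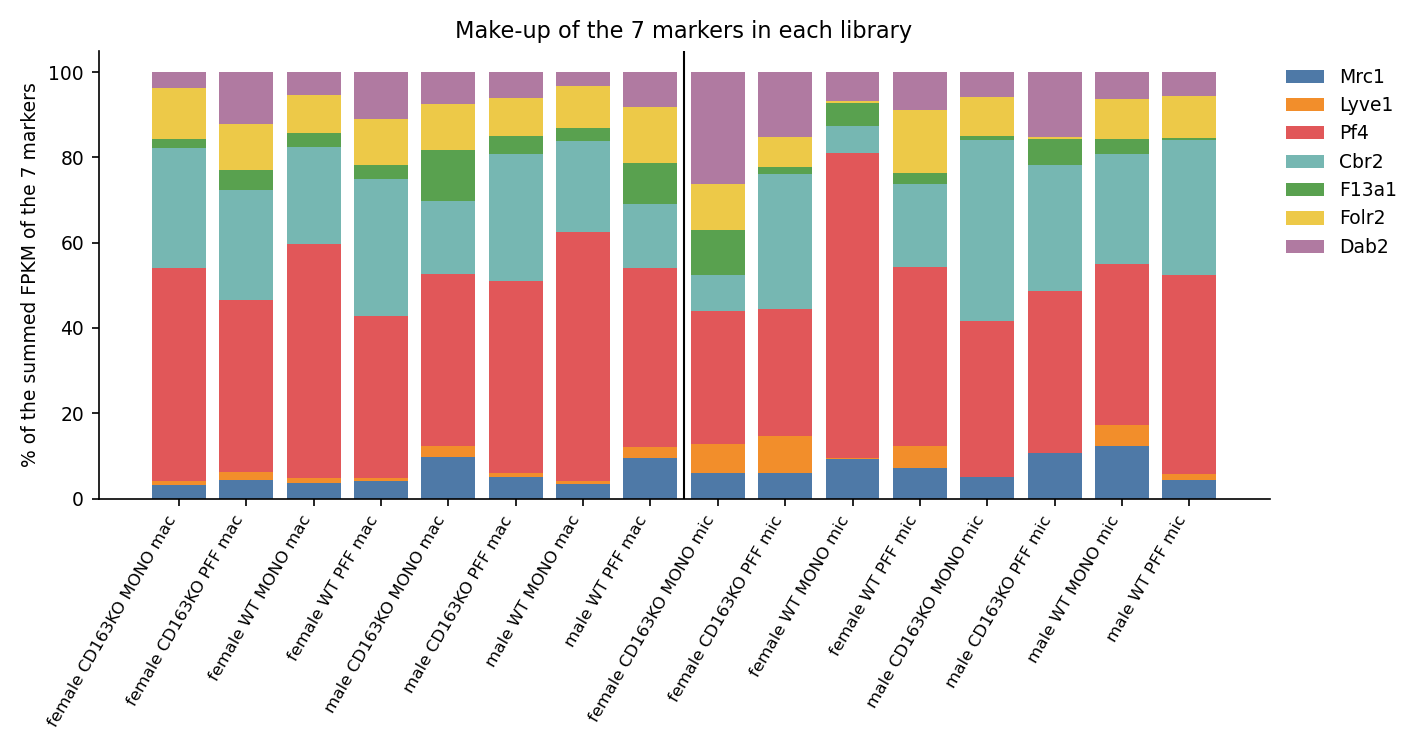
Share (%) that each of the 7 markers took of their summed FPKM, as stacked bars for the 8 macrophage (mac) and 8 microglia (mic) libraries. Pf4 took 37.9% to 58.4% in macrophages, and shares were more uneven in microglia, where sums were below 105 FPKM.

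The promoters of 3 markers with 1 transcript each and of Folr2 are shown because the 7 genes were all high in 1 population, and the window from 250 bases before to 50 bases after the transcript start was searched on both strands for short motifs. The sequences and coordinates are those of RefSeq on GRCm38.p6, the assembly that mm10 stands for, and the submitters' processing notes name mm10. Promoters were matched for 6 of the 7 genes, 9 windows in all. Mrc1 (gene at chr2:14229414-14332023) is shown at chr2:14229164-14229463 on the plus strand, Pf4 (gene at chr5:90772435-90773383) at chr5:90772185-90772484 on the plus strand, Cbr2 (gene at chr11:120729485-120732025) at chr11:120731972-120732271 on the minus strand, and 1 of the 2 windows of Folr2 (gene at chr7:101839988-101857190) at chr7:101845282-101845581 on the minus strand. Capitals mark GAGGAA, a core bound by PU.1 that reads TTCCTC from the other strand, then TGCTGA, read as TCAGCA from the other strand and known as a half-site of MAF factors, and TGANTCA, the AP-1 motif.
Mrc1: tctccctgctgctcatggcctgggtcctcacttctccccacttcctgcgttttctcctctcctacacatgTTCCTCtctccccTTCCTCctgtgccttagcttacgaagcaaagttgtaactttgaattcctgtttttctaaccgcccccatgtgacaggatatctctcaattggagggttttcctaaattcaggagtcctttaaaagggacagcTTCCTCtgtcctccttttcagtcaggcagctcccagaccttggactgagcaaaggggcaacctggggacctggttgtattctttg
Pf4: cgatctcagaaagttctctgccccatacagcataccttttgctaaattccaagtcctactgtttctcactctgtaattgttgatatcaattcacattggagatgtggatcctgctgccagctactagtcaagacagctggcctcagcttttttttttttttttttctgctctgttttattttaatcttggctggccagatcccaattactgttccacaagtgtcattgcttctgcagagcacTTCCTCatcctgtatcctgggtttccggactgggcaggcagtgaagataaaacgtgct
Cbr2: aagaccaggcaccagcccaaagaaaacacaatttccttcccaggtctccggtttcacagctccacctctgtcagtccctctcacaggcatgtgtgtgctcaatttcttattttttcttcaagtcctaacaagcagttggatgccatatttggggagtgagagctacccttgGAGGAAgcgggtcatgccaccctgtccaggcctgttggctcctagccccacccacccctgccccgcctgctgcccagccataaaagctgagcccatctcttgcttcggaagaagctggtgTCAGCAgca
Folr2: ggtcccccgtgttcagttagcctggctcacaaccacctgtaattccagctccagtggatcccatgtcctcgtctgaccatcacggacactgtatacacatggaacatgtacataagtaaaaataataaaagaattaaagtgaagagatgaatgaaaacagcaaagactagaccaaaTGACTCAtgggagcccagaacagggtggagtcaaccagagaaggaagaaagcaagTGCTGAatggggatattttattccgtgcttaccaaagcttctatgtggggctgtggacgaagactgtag
GAGGAA stood in a window of 5 of the 6 genes (7 of 9 windows), against 31.3% of 27025 genes (28.3% of 32851 windows). TGCTGA was found for 3 of 6 genes (4 of 9 windows), against 21.7% of genes (19.5% of windows). TGANTCA was found for Folr2 alone, against 8.97% of genes, and the E-box CACGTG for none of the 6, against 8.09%. These matches describe letters in the windows and were not tested. F13a1 lies at chr13:36867178-37050244, Dab2 at chr15:6299788-6440715 and Lyve1 at chr7:110850607-110862953.

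Each marker was far higher in macrophages than in microglia, and in no case did the 8 libraries of one population overlap the 8 of the other. Mrc1 was at 66.9 FPKM in CD163KO females given MONO, 135 in CD163KO females given PFF, 76.5 and 50.1 in WT females given MONO and PFF, 412 and 72.2 in CD163KO males given MONO and PFF, and 123 and 319 in WT males given MONO and PFF. In microglia, in the same order, Mrc1 was at 2.14, 1.78, 4.78, 3.80, 0.640, 2.55, 12.8 and 0.400 FPKM. The lowest macrophage library was thus above the highest microglia library, WT males given MONO, and the 2 libraries that stood apart were the highest in macrophages and the lowest in microglia.

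Lyve1 had in this order 21.7, 56.6, 23.5, 7.71, 106.5, 14.1, 22.3 and 87.8 FPKM in macrophages. In microglia it had 2.38, 2.62, 0.0400, 2.73, 0, 0.0200, 5.12 and 0.120 FPKM. Microglial Lyve1 fell into libraries with 100 to 115 counts and libraries with 0 to 6, and the margin between the populations was the smallest of the 7 genes, since the WT female PFF macrophages had 7.71 FPKM. Folr2 was at 255, 329.9, 187, 127, 457, 130.4, 345 and 441 FPKM in macrophages and at 3.85, 2.07, 0.220, 7.89, 1.16, 0.120, 9.70 and 0.920 in microglia. The 2 microglia libraries with the least Folr2 had 2 counts each.

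Pf4, the highest of the 7 by FPKM, was at 1067, 1228, 1165, 452, 1682, 651, 2065 and 1399.9 FPKM in macrophages. In microglia Pf4 was at 11.0, 8.85, 36.5, 22.3, 4.76, 9.12, 39.3 and 4.31 FPKM. Pf4 is a platelet gene too, so the other platelet and megakaryocyte genes were read beside it. Of 9 in the tables, at least 6 had 3 counts or fewer in each macrophage library, and Ppbp, the chemokine that platelets carry together with Pf4, had at most 30 counts there. Only Itga2b reached more, with 1183 counts in the male CD163KO MONO macrophages and at most 53 in the others. F13a1, which platelets and monocytes make as well, was at 47.1, 143, 72.2, 39.3, 492, 60.8, 109 and 321 FPKM in macrophages. In microglia F13a1 was at 3.69, 0.520, 2.79, 1.39, 0.130, 1.49, 3.53 and 0.0400 FPKM. These microglial values rest on 3 to 232 counts.

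Cbr2 was the steadiest marker by FPKM, at 602, 787, 477, 384, 722, 429, 753 and 504 in macrophages, where the highest library exceeded the lowest 2.05-fold. In microglia Cbr2 was at 3.02, 9.41, 3.23, 10.4, 5.50, 7.13, 27.1 and 2.93 FPKM. Dab2 was at 79.8, 373, 114, 133, 311, 86.2, 117 and 273 FPKM in macrophages. In microglia it was at 9.27, 4.56, 3.46, 4.71, 0.770, 3.65, 6.67 and 0.510 FPKM. The CD163KO female PFF macrophages held the most Dab2 and those of CD163KO females given MONO the least.

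**Figure D2:**
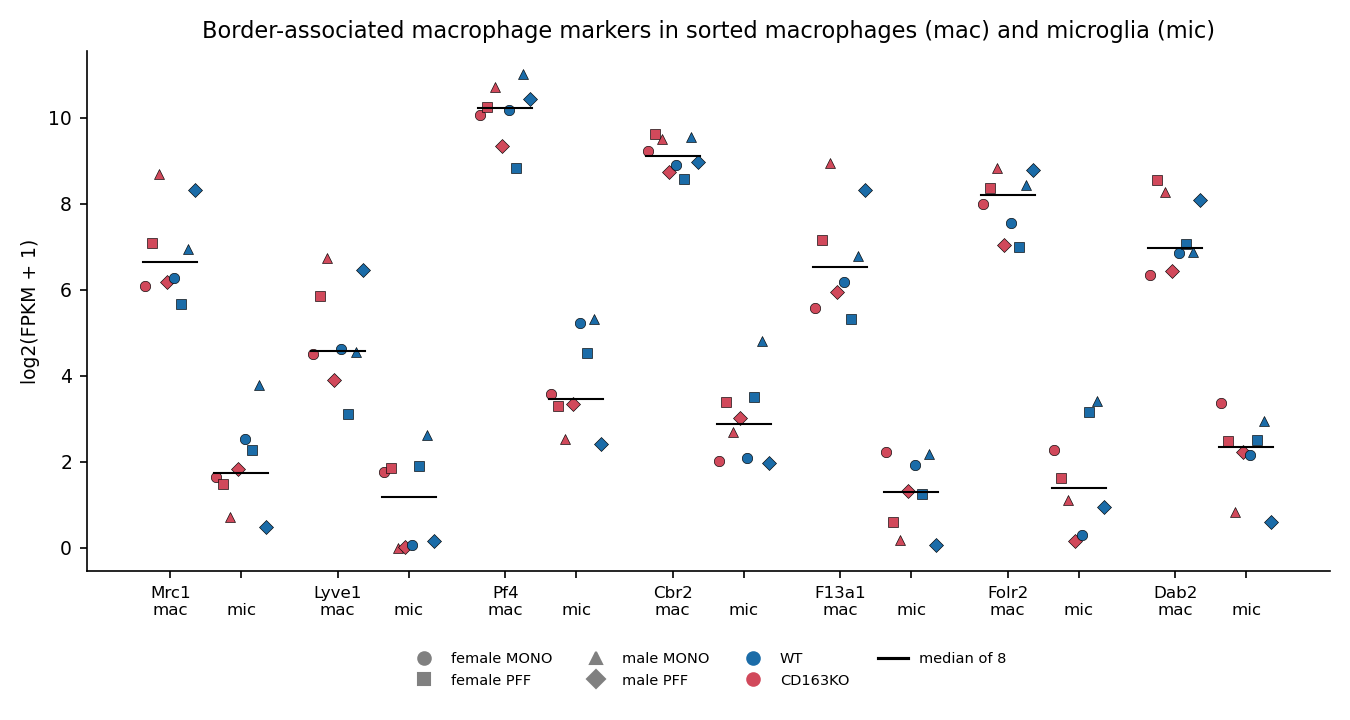
log2(FPKM + 1) of the 7 markers in each of the 8 macrophage (mac) and 8 microglia (mic) libraries, with symbols for sex and α-syn, colours for genotype and a bar at the median of 8. Every macrophage value lies above every microglia value of the same gene.

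The populations were compared by edgeR's quasi-likelihood test over 14 libraries, 7 matched groups with the group as a block. A gene was called at a Benjamini-Hochberg adjusted p of at most 0.05 and a log2 fold change of at least 1 in size. All 7 markers were called higher in macrophages, against 10.6% of the 13704 genes tested that were called higher, 6.22% called lower and 16.9% called in either direction. The difference was 8.31 ± 0.77 for Folr2 (log2 fold change ± SE), 7.76 ± 0.57 for Cbr2 and 7.56 ± 0.43 for Pf4. It was 7.50 ± 0.71 for F13a1, 6.66 ± 0.44 for Dab2, 6.64 ± 0.50 for Mrc1 and 6.36 ± 0.96 for Lyve1. Adjusted p-values ran from 9.23e-07 for Pf4 to 0.000696 for Lyve1, and the median of all genes was -0.37. The 7 intervals overlapped one another, and differences between markers were not tested. TMM scaling, which takes most genes as unchanged, sets the size: with library totals alone the markers were at 4.98 to 7.16 and the median of all genes at -1.96. Relative to that median the markers stood at 6.73 to 8.68 with TMM and at 6.94 to 9.11 without it. Both populations were taken to come from the same mice. For the CD163KO female MONO group this is in doubt, since its microglia held Y-linked counts and its macrophages had 0 Y-linked FPKM. Without this group the markers were at 6.56 to 8.36. How the triplicates enter the tables is not stated, so the p-values measure the spread between these libraries. In bulk RNA, fewer cells of a type and less RNA per cell cannot be told apart.

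**Figure D3:**
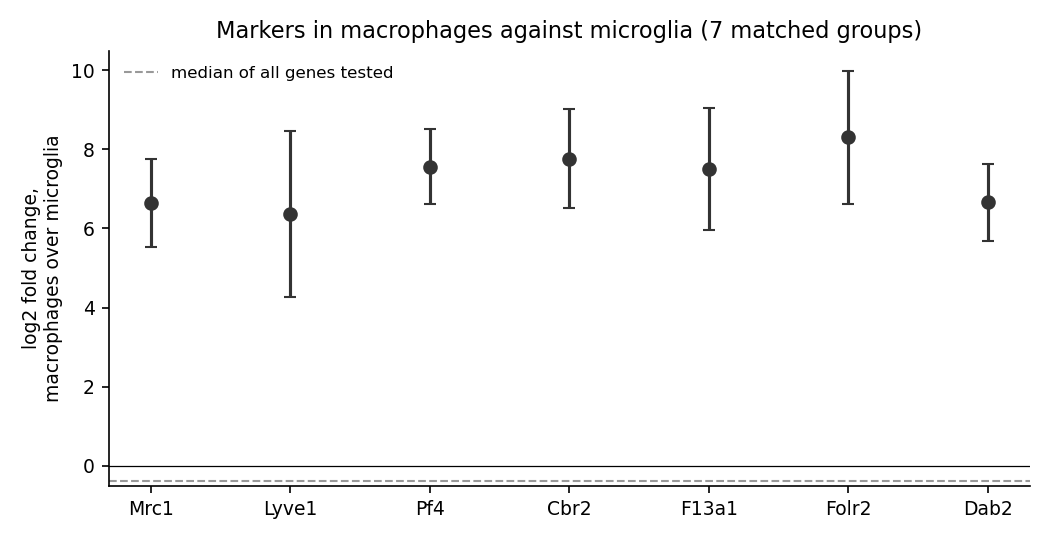
log2 fold change of the 7 markers in macrophages over microglia with 95% intervals, from 14 libraries in 7 matched groups. All 7 lie between 6.36 and 8.31, and the dashed line at -0.37 is the median of all genes tested.

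Folds were also taken group by group from counts scaled to the library total (CPM), without TMM. The median fold over the 8 matched groups was 29.8 for Mrc1, 31.4 for Dab2, 36.1 for F13a1, 82.9 for Pf4, 106 for Cbr2 and 273 for Folr2. Lyve1 had no typical fold. It was 2.85, 4.37, 9.06 and 21.5 in the 4 groups whose microglia held 100 to 115 Lyve1 counts, and 523 or more in the 4 groups whose microglia held 0 to 6. The smallest of all folds was thus that of Lyve1 in WT females given PFF, and the next smallest that of Lyve1 in WT males given MONO. Against the microglia library without a Lyve1 count, the male CD163KO MONO group, Lyve1 was at least 1637-fold higher if 3 counts per library are set as the floor. The 95% upper counting limit for 0 counts was 3.69, so this bound is not a 95% limit. Some folds rest on 1 to 3 microglial counts. For Lyve1 in WT females given MONO, for example, the fold was 523 with a 95% counting interval of 93.6 to 20684. Reads copied by PCR are not separate molecules, and such intervals cover counting error only. The median fold over the 7 markers was 20.9 to 82.6 in 6 groups, and 443 and 528 in the 2 groups whose libraries stood apart.

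Other genes known from border-associated macrophages followed the same direction in most cases. Of 30 on a further list, 24 were called higher in macrophages and none lower, against 10.6% and 6.22% of all 13704 genes tested. The 30 had a median log2 fold change of 4.51, against -0.37 over all genes. The largest were Clec10a (10.90 ± 0.84), Clec4n (10.02 ± 0.75) and Cd209a (10.01 ± 0.62), all C-type lectin receptors, and then the related Cd209f (8.73 ± 0.80). The 6 not called were Fxyd2, Cd163, Colec12, Slc40a1, Hpgd and Maf, named after their values were seen. Cd163 was at 4.19 ± 2.07, with CD163KO libraries among the 14. The gate also held other cells: all 12 neutrophil genes, 7 of 8 monocyte genes, 5 of 5 MHC class II genes, 5 of 8 tested NK and T cell genes and 5 of 8 dendritic cell genes were higher in macrophages. The MHC class II genes were H2-Ab1, H2-Aa, Cd74, Ciita and H2-Eb1, at log2 fold changes of 7.99 to 9.44. The NK and T cell genes called were Gzma, Gzmb, Nkg7, Cd3d and Klrb1c (7.66 to 11.53), and the dendritic cell genes called were Cd209a, also on the border-associated list, Dpp4, Ccr7, Flt3 and Zbtb46 (4.30 to 10.01). Of 12 homeostatic microglia genes, 11 were lower in macrophages and none higher. None of the 9 choroid plexus genes and none of the 8 fibroblast and pericyte genes was called. The platelet list had none higher and 1 of 7 tested lower (Gp9), and the endothelial list 1 of 8 higher (Cldn5). Neutrophil genes summed to 22168 to 134684 FPKM in macrophages and to 953 to 2732 in microglia, and the share of border-associated macrophages within the gate was not measured.

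The levels of the longer markers moved with the 2 libraries that stood apart. Against the geometric mean of the other 6 macrophage libraries, F13a1 (transcript length 3879 bases) was 6.95-fold higher in the male CD163KO MONO library and 4.52-fold higher in the male WT PFF library. For Lyve1 (2607 bases) the ratios were 5.25 and 4.33, and for Mrc1 (5322 bases) 5.01 and 3.88. The shorter Pf4 (615 bases) had ratios of 1.70 and 1.42, and Cbr2 (1021 bases) 1.31 and 0.915. Folr2 (1093 bases) was at 2.16 and 2.08, and Dab2, although 4257 bases long, at 2.42 and 2.12. Over the 3526 genes with a mean of at least 10 FPKM in macrophages, the median log2 difference of the male CD163KO MONO library was 0.37 for transcripts under 1000 bases and 1.99 for those in the class that starts at 3000 bases. The corresponding medians of the male WT PFF library were 0.40 and 1.96. Where 10 FPKM were required in each of the libraries compared, which leaves out genes that fell, the medians were 0.36 and 1.53, and 0.42 and 1.36. In microglia the same 2 libraries had lower values, F13a1 at -3.83 and -5.53 on the log2 scale, Mrc1 at -2.50 and -3.18, and Dab2 at -2.72 and -3.31. The shorter Pf4 was at -1.88 and -2.02, against medians of -0.47 and -1.74 over transcripts under 1000 bases, while Cbr2 was at -0.45 and -1.36 and Folr2 at -0.45 and -0.79. Lyve1 was at -2.42 in the male WT PFF library. The median over the 5100 microglial genes with a mean of at least 10 FPKM was -1.14 and -2.13, but of the markers only Pf4 reached that mean in microglia, and the others were not ranked against those genes. What part transcript length had in the levels was not tested.

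**Figure D4:**
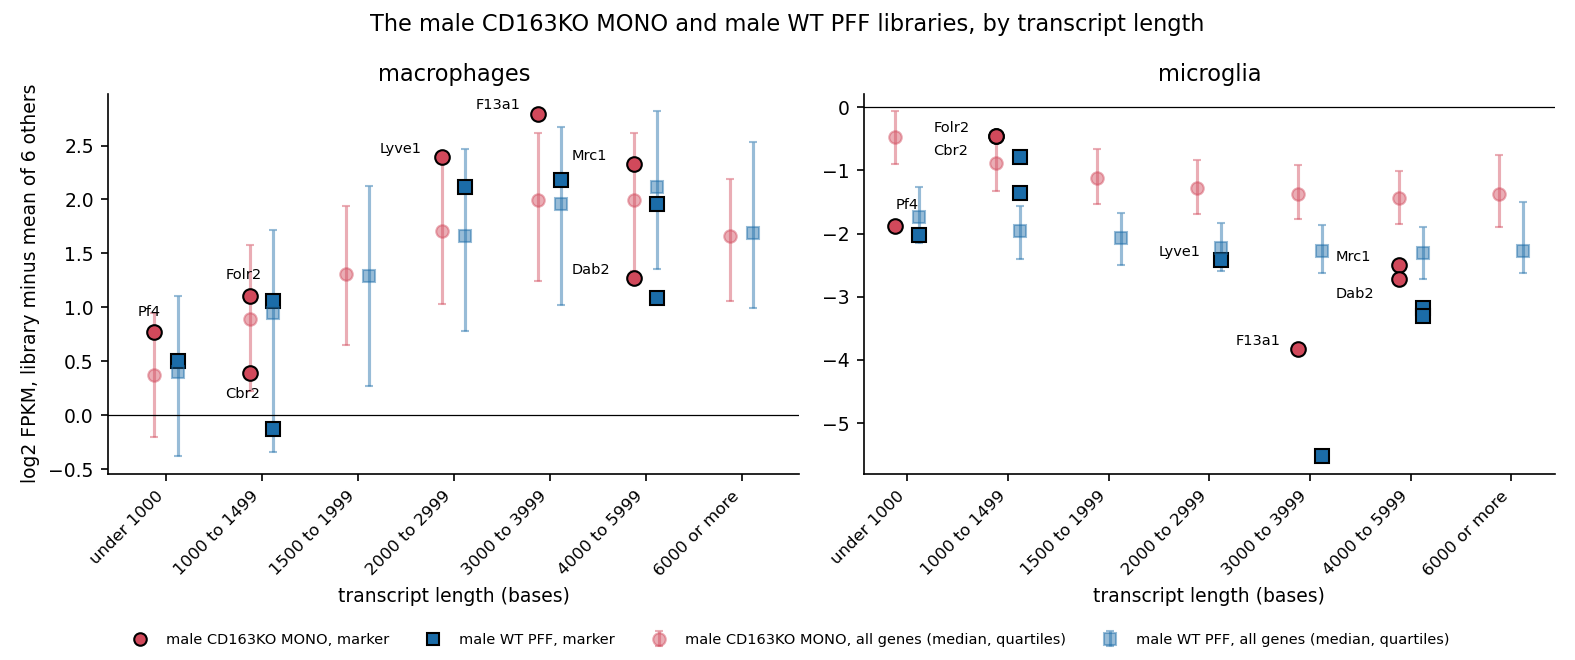
Difference of log2 FPKM between each of the 2 libraries that stood apart and the mean of the other 6 of its population, by transcript length in bases. Pale symbols with bars are the median and quartiles of all genes of a length class with a mean of at least 10 FPKM and dark-edged symbols are the markers, with Lyve1 of the male CD163KO MONO microglia left out because it was 0; in macrophages F13a1, Lyve1 and Mrc1 lie highest of the markers.

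Whether PFF changed the markers relative to MONO was tested in the 7 macrophage libraries with sex and genotype as further terms. Dab2 had the largest difference. Scaled by TMM, its macrophage level was 1460 CPM with PFF and 600 with MONO in WT females, 2303 and 613 in CD163KO females, and 817 and 487 in WT males. It was higher with PFF in all 3 pairs tested and lower in the untested pair of CD163KO males, 740 against 916 CPM. The log2 fold change was 1.25 ± 0.40 (95% interval 0.33 to 2.16), and edgeR's quasi-likelihood test gave an unadjusted p of 0.0136 and an adjusted p of 1 over 11988 genes. None of the 7 markers was called, against 0% of all genes called, and Dab2 alone among the 7 had an unadjusted p under 0.05, as did 125 genes in all. DESeq2 called 8 genes and limma 1, with no marker among them. With PFF over MONO, F13a1 was at 0.73 ± 0.39, Lyve1 at 0.59 ± 0.54, Mrc1 at 0.55 ± 0.35, Cbr2 at -0.03 ± 0.42, Folr2 at -0.04 ± 0.35 and Pf4 at -0.54 ± 0.35. The median of all genes was -0.11. Without the male WT PFF library and with the male CD163KO MONO library, F13a1 was at 0.13, Mrc1 at 0.19 and Lyve1 at -0.19. Without the WT female PFF library Lyve1 was at 1.15 and Cbr2 at -0.61, and without the WT male MONO library Cbr2 was at 0.44 and Pf4 at -0.21. The 12 neutrophil genes had a median of -0.87 in the same comparison, with 0 of 12 above 0. Their summed FPKM in macrophages was 121239 with MONO and 22168 with PFF in WT females, 98719 and 32927 in CD163KO females, and 118564 and 71456 in WT males. In the untested pair of CD163KO males it was higher with PFF, 134684 against 82239. Choroid plexus genes had a median of -1.25 (2 of 9 above 0), fibroblast and pericyte genes one of -2.26 (1 of 8), monocyte genes one of -0.62 (1 of 8) and MHC class II genes one of 0.72 (5 of 5). Their part in the marker values was not tested.

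**Figure D5:**
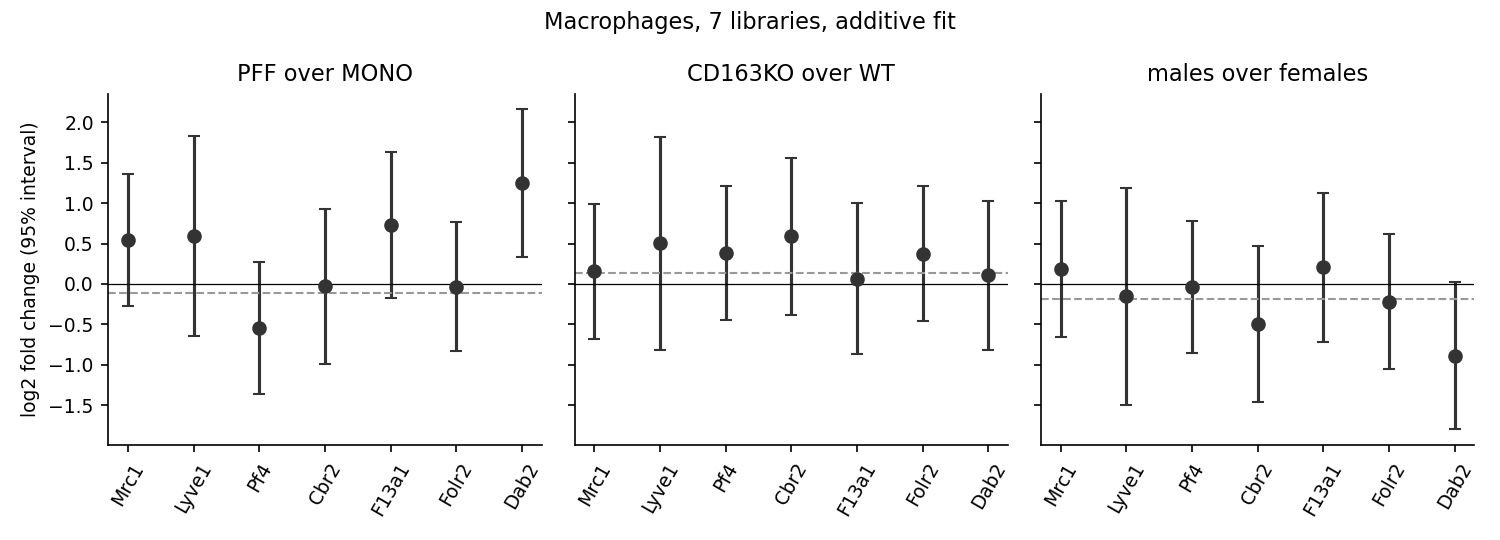
log2 fold change with 95% interval of the 7 markers in macrophages for PFF over MONO, CD163KO over WT and males over females, from 1 additive fit to 7 libraries. The dashed line is the median of all genes, and Dab2 with PFF is the only marker whose interval does not reach 0, although its adjusted p was 1.

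The comparison of CD163KO with WT asked whether loss of the receptor went along with other markers of the cells that carry it. In macrophages 1 gene was called, 0.00834% of 11988, and this was Cd163 itself with a log2 fold change of -11.35 ± 0.83 (adjusted p = 0.0102). That call was lost when the CD163KO female PFF, the WT female PFF or the CD163KO male PFF library was left out, where no gene was called. No marker was called, and no marker had an unadjusted p under 0.05, as 79 genes had. Cbr2 was at 0.59 ± 0.42, Lyve1 at 0.50 ± 0.57, Pf4 at 0.39 ± 0.36 and Folr2 at 0.37 ± 0.36. Mrc1 was at 0.15 ± 0.36, Dab2 at 0.11 ± 0.40 and F13a1 at 0.06 ± 0.40, with the median of all genes at 0.14. All 7 were above 0 in this fit, but without TMM scaling Mrc1, Dab2 and F13a1 were at -0.30, -0.27 and -0.44, where the median of all genes was -0.16. Without the male WT PFF library and with the male CD163KO MONO library, Lyve1 was at 1.24, F13a1 at 0.69, Mrc1 at 0.52, Dab2 at 0.34, Folr2 at 0.27, Cbr2 at 0.12 and Pf4 at -0.01. Without the WT female PFF library, Lyve1 was at -0.21, F13a1 at -0.34 and Cbr2 at 1.21, and without the CD163KO female PFF library F13a1 was at -0.18 and Dab2 at -0.13. Intervals reached from -0.87 to 1.82, and differences within them were not detectable with these 7 libraries. Pair by pair, CD163KO females given MONO had more of 6 markers than WT females given MONO on the log2 scale of TMM CPM, from 0.03 (Dab2) to 1.00 (Folr2), with F13a1 at -0.06, whereas by FPKM only Cbr2 and Folr2 were higher and the other 5 lower. CD163KO females given PFF had more of all 7 markers than WT females given PFF, by 0.18 (Cbr2) to 2.03 (Lyve1), and all 7 were higher by FPKM too. Among PFF males, Cbr2 and Pf4 were at 1.32 and 0.43, higher in CD163KO, and the other 5 at -1.07 to -0.14, but by FPKM all 7 were lower in CD163KO. In the untested pair of MONO males, Pf4, Cbr2 and Folr2 were lower in CD163KO (-0.88 to -0.19) and the other 4 higher (0.91 to 1.66), with Folr2 higher as well by FPKM. Each pair is 1 library against 1, with no test. Neutrophil genes had a median of 0.52 (10 of 12 above 0), endothelial genes one of -1.33 (2 of 7) and choroid plexus genes one of -1.07 (4 of 9) between the genotypes, and their part in the marker values was not tested.

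Males and females were compared in the same fit. No marker was called in macrophages, nor was any gene (0%, with 152 genes at an unadjusted p under 0.05, while DESeq2 called 17 and limma 6). Dab2 was at -0.89 ± 0.39, lower in males, with an unadjusted p of 0.0544 and an adjusted p of 1.00. Cbr2 was at -0.49 ± 0.42, Folr2 at -0.22 ± 0.36, Lyve1 at -0.15 ± 0.58, Pf4 at -0.04 ± 0.35, Mrc1 at 0.18 ± 0.36 and F13a1 at 0.20 ± 0.40. Without TMM scaling Cbr2, Folr2 and Pf4 were above 0, at 0.11, 0.48 and 0.56, with the median of all genes at 0.30 against -0.18 with TMM. Single libraries moved these values: Lyve1 was at -0.92 without the WT female PFF library and at 0.47 without the CD163KO male PFF library, F13a1 at -0.19 and 0.60, and Cbr2 at 0.02 and -0.65. Dab2 stayed below 0, between -1.27 and -0.63, with each library left out in turn. Neutrophil genes had a median of 0.83, with 12 of 12 above 0, and MHC class II genes one of -1.19, with 1 of 5 above 0. Monocyte genes had a median of 0.73 (7 of 8) and homeostatic microglia genes one of -0.57 (0 of 12). Larger shifts were those of choroid plexus genes (-3.37, 0 of 9 above 0), fibroblast and pericyte genes (-2.43, 1 of 8) and endothelial genes (-1.74, 0 of 7). The fibroblast and endothelial lists were low, with medians of at most 0.75 and 0.85 FPKM in any macrophage library. Platelet and megakaryocyte genes were at -4.49 (0 of 4 tested above 0) but near the floor. At least 6 of 9 had 3 counts or fewer in each macrophage library. The part of these lists in the marker values was not tested.

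Whether the difference between PFF and MONO depended on the genotype was tested by an interaction term in macrophages, which left 2 residual degrees of freedom. No marker was called, nor was any of 13020 genes (0%, with 59 at an unadjusted p under 0.05, 16 called by DESeq2 and 3 by limma). None of the 7 markers had an unadjusted p under 0.05 for this term, for sex in macrophages or in any comparison within microglia. The terms ran from -0.46 ± 0.90 for Folr2 to 0.55 ± 1.02 for Dab2, with 95% intervals between -2.63 and 2.80, and all 7 lay below the median of all genes, 1.06. Lyve1 was at -0.21, and at 1.46 without the male WT PFF library. Choroid plexus genes had a median of 9.16 for the same term (9 of 9 above 0) and fibroblast and pericyte genes one of 7.14 (6 of 8), and their part in the marker values was not tested. In microglia the markers were at low levels, and none was called in any of the 3 comparisons (0% of 12725 genes in each, with 765, 166 and 215 at an unadjusted p under 0.05 for PFF, genotype and sex, and 26, 3 and 20 called by DESeq2 and 0, 0 and 3 by limma). PFF against MONO gave -1.87 ± 0.98 for F13a1 and -0.91 ± 0.54 for Mrc1. The MONO side includes the CD163KO female library with Y-linked counts, which had the most F13a1 of the 8 microglia libraries (3.69 FPKM). F13a1 stayed below 0 in all 15 alternatives, which include leaving that library out. F13a1 was at -3.35 without the WT female PFF library and at -1.01 without the male WT PFF library and with the male CD163KO MONO library, where Mrc1 was at -0.19. The 12 homeostatic microglia genes were all above 0 in this comparison, with a median of 0.61, and their part in the marker values was not tested. CD163KO against WT gave -1.40 ± 0.66 for Pf4 (unadjusted p = 0.0587). Over the 3 comparisons in microglia, values for Lyve1 and Folr2 had SEs of 1.61 to 2.55.

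How the 7 markers went together was described across the 8 macrophage libraries, and no test was made. Depth and makeup differed between these libraries and are common to all markers of a library. On the FPKM scale all 21 pairs correlated above 0, with a median Pearson's r of 0.78. The highest was Mrc1 with F13a1 (r = 0.99) and the lowest Pf4 with Dab2 (r = 0.38). On the TMM CPM scale the median was 0.35, and 14 of 21 pairs were above 0. There Mrc1, F13a1 and Lyve1 stayed close (r = 0.79 to 0.97), as did Pf4, Cbr2 and Folr2 (0.56 to 0.66), whereas Mrc1 with Pf4 was at -0.50 and Cbr2 with F13a1 at -0.53. By Spearman's rho, however, Lyve1 was at 0.55 with both Mrc1 and F13a1. Dab2 had r between -0.22 and 0.43 with the others. Without the 2 libraries that stood apart, this grouping held in part. The median over the 6 libraries left was 0.59, and 20 of 21 pairs were above 0. Mrc1 with F13a1 was at 0.91 (Spearman's rho 0.89), whereas Lyve1 was at 0.66 with Mrc1 and 0.71 with F13a1 by Pearson's r but at a rho of 0.086 with both. Cbr2 with Folr2 was at 0.83 and Pf4 with Folr2 at 0.60. Pf4 with Cbr2 was at 0.12, however, Mrc1 with Cbr2 at 0.72, Cbr2 with F13a1 at 0.41 and Mrc1 with Pf4 at 0.09. Dab2 was then at 0.74 with Mrc1, 0.72 with F13a1 and 0.61 with Cbr2, and at -0.34 with Pf4. 

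The genes most like the 7 markers were sought among 6527 expressed genes, by Pearson's r with the mean standardised log2(TMM CPM + 1) of the markers over the 8 macrophage libraries. They were the chemokine receptor Ccr1 (r = 0.95), the endothelin receptor Ednrb (0.91), Smarce1 (0.90), Pfas (0.88) and Snapc4 (0.88). Picked as the highest of 6527 values over 8 libraries, they were not tested. Pfas and Snapc4 were low, with means of 6.7 and 2.03 FPKM. Only 14 of 21 marker pairs correlated above 0 on this scale, so the mean joins markers that differed. Ednrb belongs to the further list of 30, of which 29 were among these genes. Of the 29, 22 had an r above 0, with a median of 0.28 (-0.63 to 0.91), against a median of 0.03 over all 6527. Without the 2 libraries that stood apart, the median of the 29 was 0.57, against 0.01 over all. Cd163, which the CD163KO libraries lack, was at -0.63. The mean standardised level was highest in CD163KO females given PFF (1.11) and lowest in WT females given MONO (-0.76). This order rests on TMM: by summed FPKM the CD163KO males given MONO were highest (4184) and the WT females given PFF lowest (1193).

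Transcript variants were assigned for 3 of the markers. Dab2 had 5 RefSeq transcripts, and 2 of them took most of its counts. The 4520-base transcript gave a median of 55.1% (25.5% to 75.9%) over the 8 macrophage libraries, and the 3866-base transcript 39.3% (23.9% to 60.6%). Folr2 was mostly the 1097-base transcript, with a median of 81.0% (78.5% to 93.3%), and F13a1 almost wholly the 3879-base one, at 99.6% or more. RSEM divides reads that both variants share by estimation, so shares of close variants are uncertain.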

How the data were processed

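RNA of sorted macrophages and microglia was sequenced by SMART-seq2, which copies full-length mRNA. Per the methods and the labels, the authors removed rRNA and low-quality reads, mapped reads with Bowtie2 and estimated expression with RSEM. The expected counts were deposited as RSEM gave them, not normalized. The FPKM were deposited as well, scaled by the authors' RSEM to transcript length and assigned reads. Of 27787 transcripts, 27632 had a symbol in the RefSeq table of GRCm38.p6, and transcripts without one held no more than 0.128% of a library's counts. Unlisted transcripts were taken as 0.

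Counts were summed per symbol, rounded and tested with edgeR 4.0.16 (glmQLFit and glmQLFTest, TMM, filterByExpr) in R 4.3.3, in 8 comparisons. The design was the matched group plus population over 14 libraries, or sex, genotype and α-syn over 7 libraries of a population. Benjamini-Hochberg adjustment ran over all genes tested. The block rests on both populations coming from the same mice, and labels give 1 library per group. Y-linked counts put this in doubt for the CD163KO female MONO group. SEs were taken from the log2 fold change and the F statistic. Alternatives were DESeq2 1.42.0, limma 3.58.1 on log2(FPKM + 1), library totals without TMM, no filter, no block, no minimum fold, and other sets of libraries. The authors' batch correction and removal of outliers could not be repeated from these tables. For levels by transcript length, genes entered by their mean FPKM, with 0 set to 0.01 FPKM, a choice made after seeing the data. The script was tested on simulated data. Python 3.11.15, pandas 2.3.3, numpy 2.4.6 and scipy 1.17.1 were used. The 7 markers, the lists and the tests were chosen with earlier results of these data known. Genes named by rule are the 7 markers, Cd163 and the 4 called genes of the further list with the largest change. Called members of lists with 5 or fewer calls and the 5 genes most like the markers also fall under it. Apoe, Cst3, Ppbp, Itga2b and the uncalled genes of the further list were named outside this rule.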

Additional observations from a re-analysis of the deposited data

Results flagged for a closer look

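In each population the 8 libraries were searched for a value far from the rest, by Dixon's ratio of the gap to the nearest value over the whole range, with a critical value of 0.526. Of 14 sets, 7 markers in 2 populations, 2 passed it, and chance alone flags about 1 in 20. Both were the WT male MONO microglia library. Mrc1 had 12.8 FPKM there, against 4.78 in the next library, with a ratio of 0.647. Cbr2 had 27.1 FPKM, against 10.4 in the next library, with a ratio of 0.692.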

How the results depend on the processing

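All 7 markers were called higher in macrophages than in microglia in each of 16 alternatives, including without the replicate block (7 called) and with each matched group left out in turn (7 to 7). Outside the interaction, leaving out the CD163KO female MONO group was counted more than once. The setting without a minimum fold repeats the reported fit. Not all alternatives, or values counted over them, are thus separate. In the other 7 comparisons 0 markers were called in the fits reported and in each alternative (0 to 0 with single libraries left out). The number of all genes called was less stable. For macrophages against microglia it was 2311, against 4263 with DESeq2, 6304 without TMM, 5831 with limma, 4042 without the WT male PFF libraries and 8197 without both groups that stood apart and without TMM, a setting chosen after seeing the data. In the 6 comparisons within a population it was 0 or 1, and 0 to 26 in the alternatives. For the interaction it was 0, and 3378 without the WT female PFF library; the fit without the CD163KO female MONO library could not be made. Without the block, Lyve1 was at 5.55 and Folr2 at 7.63 in the comparison of populations, and with limma on log2(FPKM + 1) Lyve1 was at 3.52. The difference of Dab2 between PFF and MONO in macrophages lay between 0.94 and 1.63 over 15 alternatives, with an adjusted p of 0.773 or more. Signs of uncalled markers were less stable: 11 of 105 values for PFF, 14 of 105 for genotype and 19 of 105 for sex in macrophages were on the other side of 0. The median of all genes for PFF against MONO in macrophages was -0.11 with TMM and -0.43 with library totals. Low counts limit Lyve1, F13a1 and Folr2 in microglia, where 0 to 3 counts were found in some libraries.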
